A study of Drosophila melanogaster with 30 samples.

Results

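The study measured chromatin contacts in Drosophila melanogaster lines with altered GAGA-associated factor (GAF), the product of Trithorax-like (Trl). Described here is one comparison, delta-Q against Halo-Trl wing discs, over every loop of the authors' wing disc loop list (38 loops with gene names at both anchors, 104 with 1 name and 67 with none). No loop was selected on its change. Of the 30 samples of the series, 6 were wing disc contact libraries, with 2 per genotype, and 4 of these enter the comparison. Delta-Q larvae carried Halo-tagged GAF whose label names the Q domain as deleted. Delta-POZ larvae, which serve as a yardstick, carried Halo-tagged GAF labelled as lacking the POZ domain. Halo-Trl larvae carried Halo-tagged GAF with neither deletion. All 3 genotypes were homozygous, all carried the Halo tag, and none was untagged. Wandering larvae of the last instar were dissected, and 90 discs were pooled for each biological replicate. Age and sex were not given. Discs were fixed with formaldehyde and afterwards with the crosslinkers DSG and EGS. How the lines were made is not given in the sources used here, so the deletion and the line it sits in cannot be told apart.

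GAF binds GAGAG repeats through its zinc finger and acts at promoters, Polycomb response elements and elements that tether distant DNA. Its POZ (BTB) domain, near the amino terminus, joins GAF molecules to each other and to other POZ proteins. The Q domain is a glutamine-rich stretch at the carboxy terminus, of a kind found in many transcription activators. The wing imaginal disc is the larval epithelium that gives rise to the wing and the back of the thorax, and many of its patterning genes lie in clusters of paralogs joined by loops.

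A loop is a pair of anchors of 5000 bp. Their midpoints lay 6.4 to 286.8 kb apart, with a median of 30.8 kb. The authors' list holds 164 different gene names. Summed over the loops, the libraries held 24781 and 23944 contacts in delta-Q, 26755 and 31995 in delta-POZ, and 29215 and 31741 in Halo-Trl. The delta-Q mean of 24362.5 was 79.9% of the Halo-Trl mean of 30478. A depth difference and a shift common to all loops cannot be told apart in these counts, so each result below is relative to the other loops. The median loop had 92 and 90 contacts in delta-Q, against 108 and 118 in Halo-Trl, and the lowest loop in any of these 4 libraries had 23. Values per loop are normalised contacts, scaled to a library of mean size. In the wing disc RNA libraries all 16 wing disc marker genes averaged above 1 CPM (a read count scaled to a common library size), as did 6 of 6 haemocyte, 5 of 5 fat body, 4 of 5 muscle and both measured tracheal markers. None of 3 salivary gland and none of 3 germline markers did. The contact libraries themselves cannot be checked for cell type or for the deletion.

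To ask how closely contacts were kept without the Q domain, contacts were compared loop by loop between delta-Q and Halo-Trl. No loop was called: 0 (0%) had an edgeR quasi-likelihood adjusted p under 0.05, and the smallest was 0.369. The log2 ratios had a median of 0.01 and an SD of 0.178, with 112 loops higher and 97 lower in delta-Q. This balance depends on the scaling: 70 were higher and 139 lower under upper-quartile normalization (median -0.08), and 93 higher and 116 lower when scaled by table totals (median -0.02). The quartiles were -0.08 and 0.13, and the extremes were -0.72 and 0.38. A missed call does not show that contacts were kept, so each ratio was given a 95% interval. The whole interval lay within 2-fold of equality at 207 loops (99.0%), all but 2 of the list, and within 1.5-fold at 166 (79.4%). At 1 loop only did it lie between 20% lower and 25% higher. The narrower bound depends on the fit: DESeq2 placed 79 loops within 1.5-fold, and edgeR 90 without delta-Q 1, 99 without delta-Q 2, 97 without Halo-Trl 1 and 76 without Halo-Trl 2. The count within 2-fold was 194 to 207 in all 13 alternatives tried, so at this depth the libraries bound at least 194 loops to 2-fold in each fit tried, and most loops to 1.5-fold in the edgeR fit of all 6 libraries.

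The median half-width of these intervals was 0.37 on the log2 scale, which is 1.30-fold, with a range of 0.30 to 0.48 (1.23-fold to 1.39-fold). For 158 loops (75.6%) the estimated log2 ratio was smaller than its own standard error. Precision followed contact number, as it must where 1 spread serves all loops. Of the 70 loops with the most contacts (means 141 to 606) 67 were bounded within 1.5-fold, as were 58 of the middle 70 and 41 of the 69 with the fewest (means 31.2 to 79.4). Median half-widths in these 3 groups were 0.32, 0.37 and 0.44. Each interval borrows 1 spread estimated over all loops and all 6 libraries, so a loop whose own replicates disagree is given too narrow an interval. With 2 libraries against 2, an exact two-sided permutation test of one loop cannot go below p = 0.333.

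**Figure D1:**
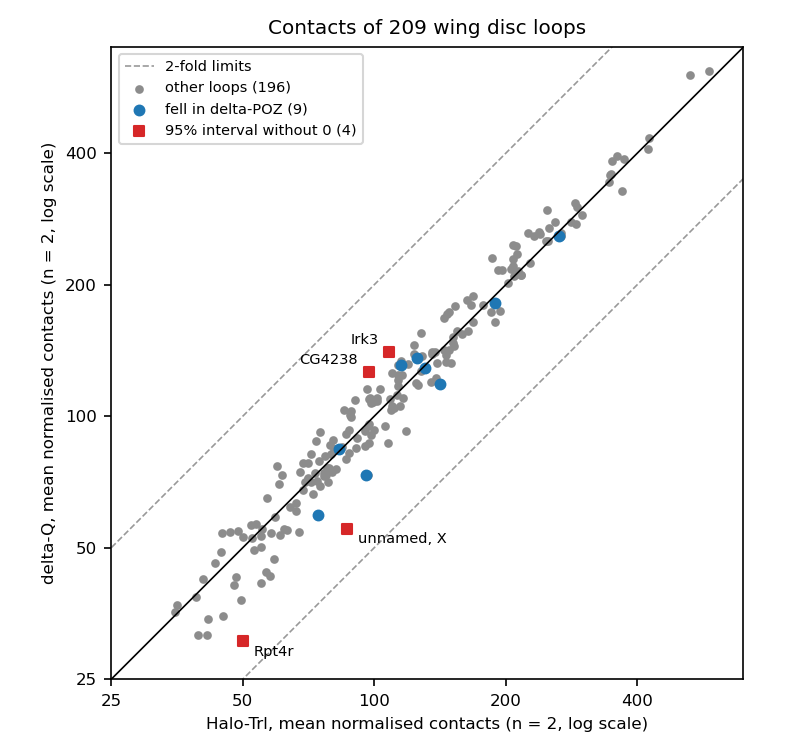
Mean normalised contacts of each loop in delta-Q (vertical) and Halo-Trl (horizontal), n = 2 each, both axes logarithmic, with the line of equality and dashed 2-fold limits. All points lie inside the 2-fold limits, including the 9 loops that fell in delta-POZ (blue), and the 4 red squares are the loops whose 95% interval does not hold 0.

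The same fit gave delta-POZ against the same Halo-Trl libraries for scale. There 9 loops were called (4.31%), all lower in delta-POZ. The SD of the log2 ratios was 0.307, and 197 intervals lay within 2-fold and 137 within 1.5-fold. In the direct contrast of delta-Q with delta-POZ, 9 loops were called (4.31%), all higher in delta-Q. These were not all the same loops, since dnr1 fell in delta-POZ but missed the threshold in the direct contrast. The numbers of loops with an unadjusted p under 0.05 were 4 for delta-Q and 22 for delta-POZ against Halo-Trl, and 26 for delta-Q against delta-POZ. These contrasts share libraries, so their counts are given side by side and are not independent of each other.

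**Figure D2:**
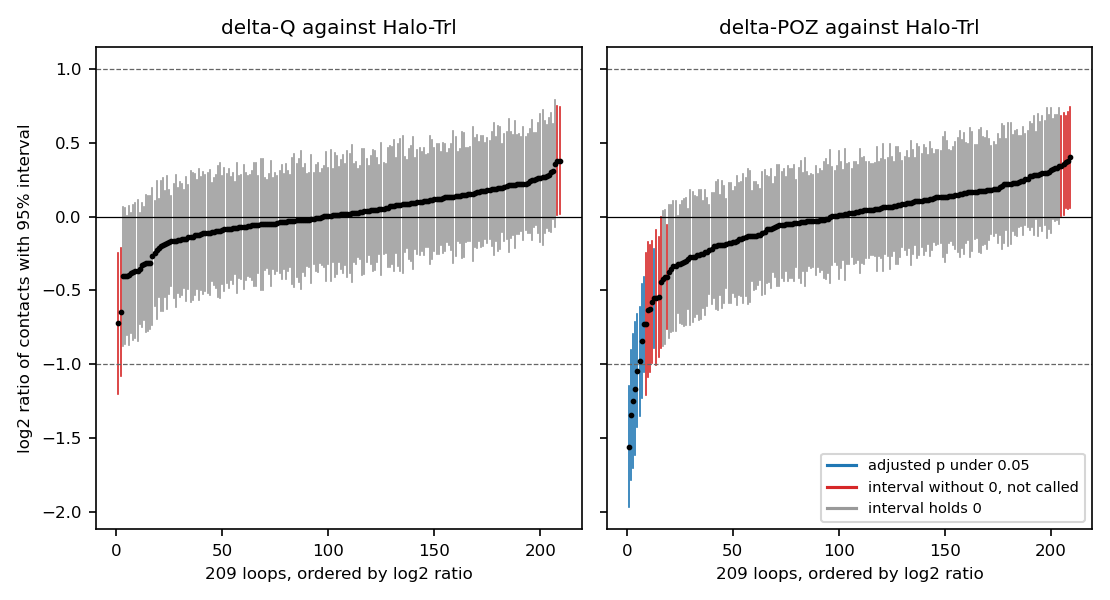
Log2 ratios of all loops with 95% intervals, each panel ordered by its own ratio, for delta-Q (left) and delta-POZ (right) against Halo-Trl; dashed lines mark 2-fold. In delta-Q 2 intervals cross the lower 2-fold line and none is called, while delta-POZ has a tail of 9 called loops (blue) that reaches -1.56.

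The 4 loops whose interval did not hold 0 (1.91%) were 2 lower and 2 higher in delta-Q. Their number was 1 under DESeq2, 12 under upper-quartile normalization, 7 with delta-POZ left out of the fit, 2 with the replicate block, and 8 without delta-Q 2 or without Halo-Trl 2. The largest difference was at a loop on chromosome 3L labelled Rpt4r, a gene for a proteasome subunit variant, with anchors at 11834701 to 11839700 and 11937901 to 11942900 (coordinates as in the authors' loop list, whose genome build is not given). Normalised contacts were 26.0 and 35.0 in delta-Q, against 49.6 and 50.7 in Halo-Trl. Both delta-Q libraries lay below both Halo-Trl libraries, and delta-POZ, at 45.5 and 36.5, lay between them. The log2 ratio was -0.72 (95% interval -1.20 to -0.25, edgeR adjusted p = 0.369), from only 23 and 29 raw contacts in delta-Q and 52 and 58 in Halo-Trl. A loop on chromosome X without a gene name (anchors at 20486701 to 20491700 and 20505901 to 20510900) had 61.1 and 49.5 in delta-Q, against 89.6 and 83.9 in Halo-Trl. Its log2 ratio was -0.65 (-1.08 to -0.21, adjusted p = 0.369). These 2 loops were the only ones not bounded within 2-fold.

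The 2 loops on the higher side were both on chromosome 2L. The loop labelled Irk3, an inwardly rectifying potassium channel gene, had 135 and 146 normalised contacts in delta-Q, against 116 and 99.7 in Halo-Trl (log2 0.38, interval 0.02 to 0.74, adjusted p = 0.988). The loop labelled CG4238 had 127 and 126 in delta-Q, against 93.4 and 101 in Halo-Trl (log2 0.38, interval 0.01 to 0.75, adjusted p = 0.988). Next in order of p came an unnamed loop on 3L, with 66.7 and 79.7 in delta-Q against 102 and 90.9 in Halo-Trl, and the loop joining roughoid (ru) and rhomboid (rho). These 2 genes encode proteases that release EGF receptor ligands. Their loop had 239 and 222 in delta-Q, against 168 and 205 in Halo-Trl (log2 0.31, interval -0.02 to 0.63). At 54 loops (25.8%) both libraries of one genotype lay above both of the other, 28 with delta-Q higher and 26 with delta-Q lower. With 2 libraries against 2, such a separation has an exact two-sided permutation p of 0.333. These counts are therefore no sign of a difference.

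The most contacted loops gave the tightest bounds, which follows from the shared spread. The loop labelled CG12288 and ApepP had 571 and 665 normalised contacts in delta-Q, against 620 and 545 in Halo-Trl (log2 0.09, interval -0.21 to 0.38). The loop of blw, a mitochondrial ATP synthase subunit gene, and CycB, the gene for cyclin B, had 550 and 659 in delta-Q, against 572 and 485 in Halo-Trl (0.19, -0.10 to 0.49). Ggamma30A, a gene for a G protein gamma subunit, labels a loop with 418 and 447 in delta-Q, against 439 and 411 in Halo-Trl (0.03, -0.27 to 0.33). At these 3 loops the libraries of the 2 genotypes overlapped. Dscam1, the hypervariable neuronal recognition gene, had 386 and 401 in delta-Q, against 358 and 359 in Halo-Trl (0.13, -0.17 to 0.43). Here the groups did not overlap, yet the interval held 0.

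Loops were also read by the roles of the genes they name, in 7 groups put together after names and values had been seen and given as description. None of these loops was called in delta-Q. Counts bounded within 1.5-fold are those of the main fit, in which 79.4% of the whole loop list was so bounded. That share followed contact number, so the counts are not read as traits of the roles. Transcription factors that pattern wing, leg and body wall named 32 loops, with log2 ratios of -0.38 to 0.30 and 26 loops bounded within 1.5-fold. The salm/salr loop joins the spalt genes, which place the wing veins under Dpp signalling. It had 230 and 202 normalised contacts in delta-Q, against 173 and 220 in Halo-Trl (log2 0.13, interval -0.19 to 0.46). The loop of vestigial (vg), the wing selector gene, had 104 and 79.7 in delta-Q, against 77.2 and 72.6 in Halo-Trl (0.30, -0.10 to 0.70), the highest ratio of the group. The Doc1/Doc2 loop joins T-box genes and had 231 and 202 in delta-Q, against 176 and 207 in Halo-Trl (0.17, -0.15 to 0.50). The loop of the zinc finger genes elB and noc was among the least precise, with 38.4 and 47.1 in delta-Q, against 34.3 and 62.1 in Halo-Trl (-0.19, -0.64 to 0.26). Its interval does not exclude a loss of 1.5-fold.

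The apterous (ap) loop, named for the selector of dorsal wing identity, had 99.5 and 111 normalised contacts in delta-Q, against 121 and 98.8 in Halo-Trl (log2 -0.06, interval -0.43 to 0.31). The ara/caup loop of the Iroquois genes, which set up veins and bristles, had 90.5 and 77.3 in delta-Q, against 72.5 and 90.0 in Halo-Trl (0.04, -0.36 to 0.45). The loop of nubbin (nub), a POU gene of the wing pouch, had 129 and 86.9 in delta-Q, against 90.6 and 108 in Halo-Trl (0.12, -0.25 to 0.49). In each of these the libraries overlapped. Among Hox genes the Scr loop had 195 and 225 in delta-Q, against 217 and 200 in Halo-Trl (0.00, -0.32 to 0.33), and 2 loops labelled Antp had log2 ratios of -0.15 and -0.12. All 3 were bounded within 1.5-fold.

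EGFR, FGF and Notch signalling genes named 8 loops, with ratios of -0.32 to 0.31, and 4 of these were bounded within 1.5-fold. The lowest, labelled ser, had 78.0 and 95.4 normalised contacts in delta-Q, against 97.2 and 118 in Halo-Trl (log2 -0.32, interval -0.70 to 0.06). The longer of 2 loops that name pyramus (pyr) and thisbe (ths), genes for the FGF ligands of the Heartless receptor, had 225 and 298 in delta-Q, against 232 and 248 in Halo-Trl (0.12, -0.19 to 0.44). The shorter one had 52.0 and 57.9 in delta-Q, against 62.9 and 62.9 in Halo-Trl (-0.20, -0.64 to 0.24). The loop of Notch (N) had 78.0 and 79.7 in delta-Q, against 69.6 and 79.5 in Halo-Trl (0.08, -0.34 to 0.49). All 6 loops that name growth and polarity genes were bounded within 1.5-fold, with ratios of -0.05 to 0.13. They include kibra, a Hippo pathway component, and dachsous (ds), a large cadherin. So were 13 of 14 loops of guidance, adhesion and matrix genes (-0.33 to 0.25), among them robo2, a Slit receptor, with 223 and 208 in delta-Q against 219 and 208 in Halo-Trl (0.01, -0.31 to 0.33). All 6 loops of ecdysone response genes (-0.08 to 0.19) were bounded too. At the loop of the ecdysone receptor gene EcR, 118 and 165 in delta-Q stood against 147 and 143 in Halo-Trl. All 14 loops of neural, eye and blood cell transcription factors were bounded within 1.5-fold (-0.12 to 0.23), against 79.4% of the whole list. In this group the ac/sc loop of the proneural achaete-scute genes had 142 and 147 in delta-Q, against 146 and 158 in Halo-Trl (-0.07, -0.42 to 0.27).

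The 9 loops that fell in delta-POZ show what the assay registers at single loops. They were picked by delta-POZ against Halo-Trl, so those values are descriptive. The choice uses the Halo-Trl libraries and favours loops where these are high, which lowers the delta-Q ratios given here. The loop labelled charybde (chrb), an inhibitor of TOR signalling, joins anchors on 3L at 11426901 to 11431900 and 11484501 to 11489500. It had 120 and 152 normalised contacts in delta-Q, 42.3 and 42.6 in delta-POZ, and 128 and 122 in Halo-Trl. Both delta-Q libraries were near the Halo-Trl pair and far above delta-POZ. The log2 ratio of delta-Q to Halo-Trl was 0.12 (interval -0.23 to 0.47), and that of delta-Q to delta-POZ was 1.68 (1.26 to 2.09, edgeR adjusted p = 3.49e-12). The loop from chrb to its paralog scylla (scyl), across 240.0 kb, had 88.2 and 79.7 in delta-Q, 36.0 and 33.9 in delta-POZ, and 78.2 and 87.4 in Halo-Trl (delta-Q to Halo-Trl 0.02, -0.38 to 0.42). The bab1/bab2 loop joins the bric-a-brac genes, which pattern leg segments. It had 122 and 135 in delta-Q, 59.2 and 67.0 in delta-POZ, and 118 and 142 in Halo-Trl (-0.02, -0.37 to 0.33).

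The loop of lozenge (lz), a Runx gene, had 148 and 113 normalised contacts in delta-Q, 58.2 and 69.6 in delta-POZ, and 104 and 126 in Halo-Trl (delta-Q to Halo-Trl log2 0.19, interval -0.17 to 0.54). CG14372, a gene of the sidestep family of guidance proteins, labels a loop with 237 and 280 in delta-Q, 171 and 148 in delta-POZ, and 293 and 236 in Halo-Trl (-0.03, -0.34 to 0.28). The loop of dnr1, a negative regulator of immune signalling, had 188 and 175 in delta-Q, 140 and 118 in delta-POZ, and 190 and 187 in Halo-Trl (-0.05, -0.38 to 0.27). At dnr1 the direct contrast of delta-Q with delta-POZ missed the threshold (log2 0.50, interval 0.15 to 0.84, edgeR adjusted p = 0.0819), and at smal/Ddr it was 0.84 (0.35 to 1.33, adjusted p = 0.0186). That contrast shares the delta-POZ libraries with the choice of the 9 loops.

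At 3 of the 9 loops both delta-Q libraries lay below both Halo-Trl libraries, and at none above. Over the whole loop list the share with delta-Q below was 12.4%, and the choice of the 9 loops itself favours it, so nothing is read from this count. The esg/wor loop joins escargot and worniu, Snail family genes. It had 81.4 and 65.2 normalised contacts in delta-Q, 40.2 and 35.7 in delta-POZ, and 91.5 and 99.7 in Halo-Trl. Delta-Q kept an estimated 76.8% of the Halo-Trl contacts (log2 -0.38, interval -0.79 to 0.02). At smal/Ddr, neighbouring genes for discoidin domain receptors, the values were 62.2 and 56.7 in delta-Q, 25.4 and 40.0 in delta-POZ, and 66.7 and 82.2 in Halo-Trl (delta-Q to Halo-Trl log2 -0.33, -0.75 to 0.09). At kekkon 1 (kek1), a feedback inhibitor of EGFR signalling, they were 130.0 and 107 in delta-Q, 73.0 and 70.5 in delta-POZ, and 144 and 139 in Halo-Trl (-0.25, -0.60 to 0.10). A partial loss at these 3 loops was not detectable at this depth, and a loss of 1.5-fold lies inside the intervals of esg/wor, smal/Ddr and kek1. Summed, the 9 loops had 1177 and 1165 in delta-Q, 645 and 626 in delta-POZ, and 1213 and 1222 in Halo-Trl. The sum in delta-Q was lower than in Halo-Trl by an estimated 3.80% (interval 10.2% lower to 2.99% higher).

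**Figure D3:**
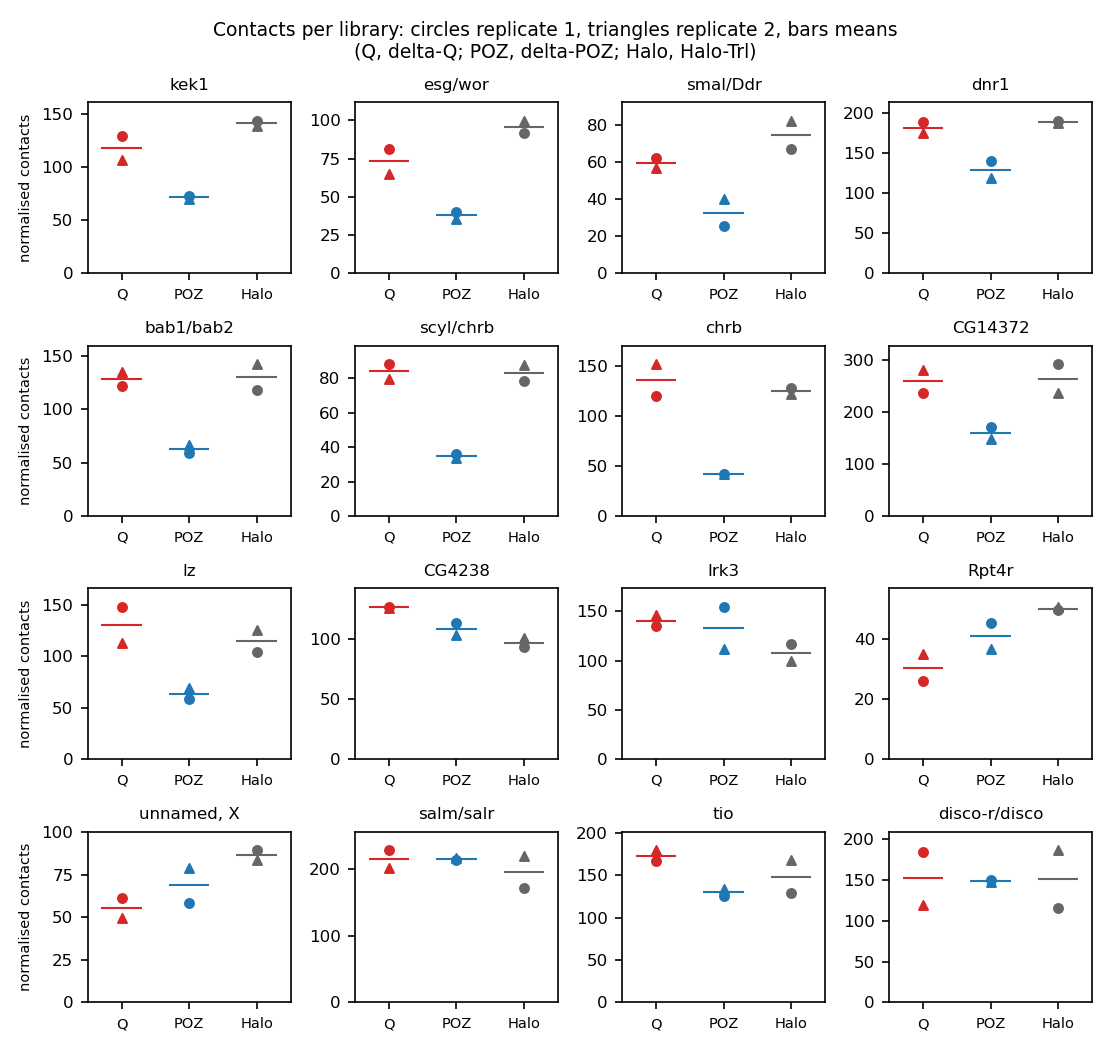
Normalised contacts per library at the 9 loops that fell in delta-POZ (kek1 to lz), the 4 loops whose delta-Q interval does not hold 0 (CG4238 to the unnamed loop on X), and salm/salr, tio and disco-r/disco; circles are replicate 1, triangles replicate 2, bars means, and each vertical axis starts at 0. The delta-Q points lie above both delta-POZ points in each of the first 9 panels, which the choice of loops low in delta-POZ favours. At disco-r/disco the replicates of delta-Q and of Halo-Trl differ more than their means.

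Summing contacts over classes of loops narrows the bounds. Over 21 classes, by distance, contact number, gene names, paralogy, a matching embryo loop, a shared anchor and chromosome arm, the log2 ratio of delta-Q to Halo-Trl ran from -0.08 to 0.07. All 21 intervals held 0 and lay between 20% lower and 25% higher, with outermost log2 bounds of -0.20 and 0.21. The library scaling came from these same loops, so a class that holds most contacts is kept near 0 by the scaling itself. The 188 loops that are not paralog pairs, for example, held 90.3% and 91.7% of the delta-Q contacts (log2 0.03). Such classes say little about how closely contacts were kept. The percent limits held for all 21 classes in each of 9 alternatives, but not the sign or the 0. Under upper-quartile normalization all 21 ratios were negative (-0.17 to -0.02), and the intervals of the loops over 100 kb (-0.17) and of the least contacted loops (-0.15) did not hold 0. Without Halo-Trl 1 the same was true of these and of paralog pairs (-0.16, -0.09 and -0.11). Without Halo-Trl 2 the intervals of paralog pairs (0.19), loops with 2 gene names (0.12) and loops with a shared anchor (0.10) lay above 0, as did that of arm 2R (0.11) without delta-Q 1. The classes overlap and share the spread of 1 fit. Fitted each on its own with 3 residual degrees of freedom, an alternative chosen after the data were seen, 20 of 21 still lay within these limits.

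By distance, the 54 loops under 20 kb summed to 9922 and 10529 normalised contacts in delta-Q, against 10084 and 9680 in Halo-Trl (log2 0.05, interval -0.03 to 0.13). The 88 loops of 20 to 50 kb had a log2 ratio of 0.02 (-0.05 to 0.09), and the 51 loops of 50 to 100 kb one of 0.06 (-0.03 to 0.14). The 16 loops over 100 kb gave the lowest class ratio, with 1161 and 1171 in delta-Q, against 1164 and 1303 in Halo-Trl (-0.08, -0.20 to 0.04). Here delta-Q 1, delta-Q 2 and Halo-Trl 1 nearly coincided, and Halo-Trl 2 stood above them. Delta-POZ, at 1062 and 1064, was lower still against the same Halo-Trl libraries (-0.22, -0.33 to -0.10). Split by contact number, the log2 ratios were -0.06 for the least, 0.03 for the middle and 0.06 for the most contacted group, and each interval held 0.

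The 62 loops whose anchors lie within 5 kb of an embryo loop of the same study had a ratio of 0.06 (-0.02 to 0.14), and the 147 others one of 0.02 (-0.05 to 0.10). Loops with 2 gene names, 1 name and none had ratios of 0.06, 0.05 and -0.01. The 36 loops that share an anchor with another loop had 0.07 (-0.02 to 0.17), and the 173 that share none 0.03 (-0.04 to 0.10). On the chromosome arms the ratios were 0.07 on 2L, 0.06 on 2R, 0.02 on 3L, 0.01 on 3R and 0.00 on X. No difference between classes was tested.

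**Figure D4:**
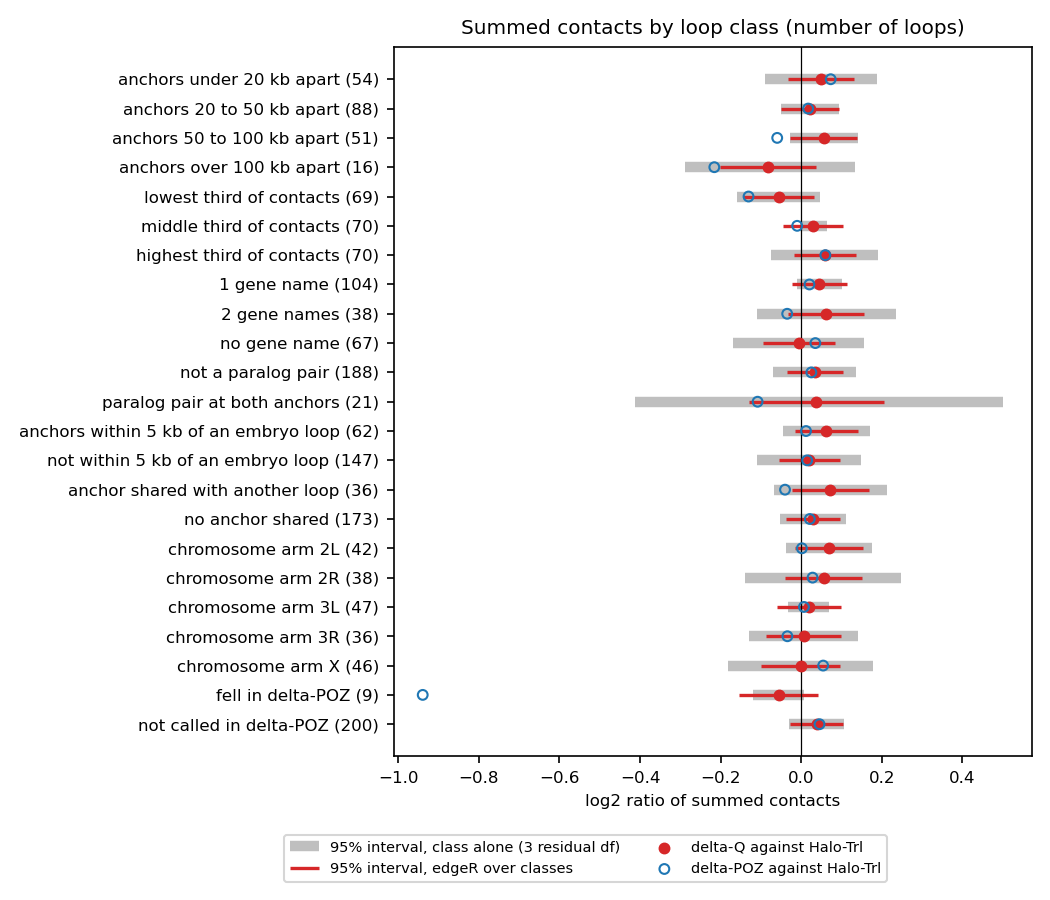
Log2 ratio of summed normalised contacts for each loop class, number of loops in brackets, for delta-Q (red, with its 95% interval from the fit over classes, and in grey that of the class fitted alone) and delta-POZ (open blue) against Halo-Trl. Every red interval holds 0, the grey interval is widest for paralog pairs, and the 9 loops chosen for their fall in delta-POZ stand at -0.94 in that genotype only.

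The exception among the classes fitted alone was the 21 loops with paralogs at both anchors. Their sums were 2707 and 2386 in delta-Q, 2310 and 2295 in delta-POZ, and 2221 and 2736 in Halo-Trl. The log2 ratio of delta-Q to Halo-Trl was 0.04 (interval -0.13 to 0.21), but -0.41 to 0.50 for the class alone. Delta-Q 1 and Halo-Trl 2 were high together, and delta-Q 2 and Halo-Trl 1 were low together. Halo-Trl 2 was above Halo-Trl 1 at 20 of these 21 loops, and delta-Q 1 above delta-Q 2 at 15, each of them among the 20. Among the 188 other loops, Halo-Trl 2 was the higher at 85 and delta-Q 1 at 86. The widest case was disco-r/disco, zinc finger genes of leg development, with 184 and 120 in delta-Q, 150 and 147 in delta-POZ, and 116 and 187 in Halo-Trl. Its log2 ratio of 0.00 (-0.34 to 0.34) averages replicates that differ more than the genotypes do, and its printed interval rests on the shared spread.

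The same crossing appeared over the whole loop list. The root mean square log2 ratio between 2 libraries was 0.233 for delta-Q 1 with Halo-Trl 2 and 0.252 for delta-Q 2 with Halo-Trl 1. It was 0.278 between the replicates of delta-Q and 0.268 between those of Halo-Trl. Counting error alone would give 0.211 and 0.222 for the crossed pairs, and 0.230 and 0.202 for the replicate pairs. The remaining pairs of delta-Q with Halo-Trl gave 0.292 (both numbered 1) and 0.266 (both numbered 2), and pairs of delta-POZ with Halo-Trl gave 0.333 to 0.380. So the libraries of delta-Q and Halo-Trl differed from each other about as much as replicates of one genotype did, and no loop differed over 2-fold in any of the 4 pairs. The 2 crossed pairs still differed beyond counting error (chi-square per degree of freedom 1.27 and 1.30, p = 0.00506 and 0.00226). So the counts within a crossed pair were not equal up to counting error, and the comparison shows no more than that. What the crossed pairs share was not tested, and the labels give no date or batch. The main fit did not use replicate numbers as pairs, and same-numbered deviations of delta-Q and Halo-Trl correlated at -0.26. With the replicate block, 0 loops were called and 134 were bounded within 1.5-fold.

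**Figure D5:**
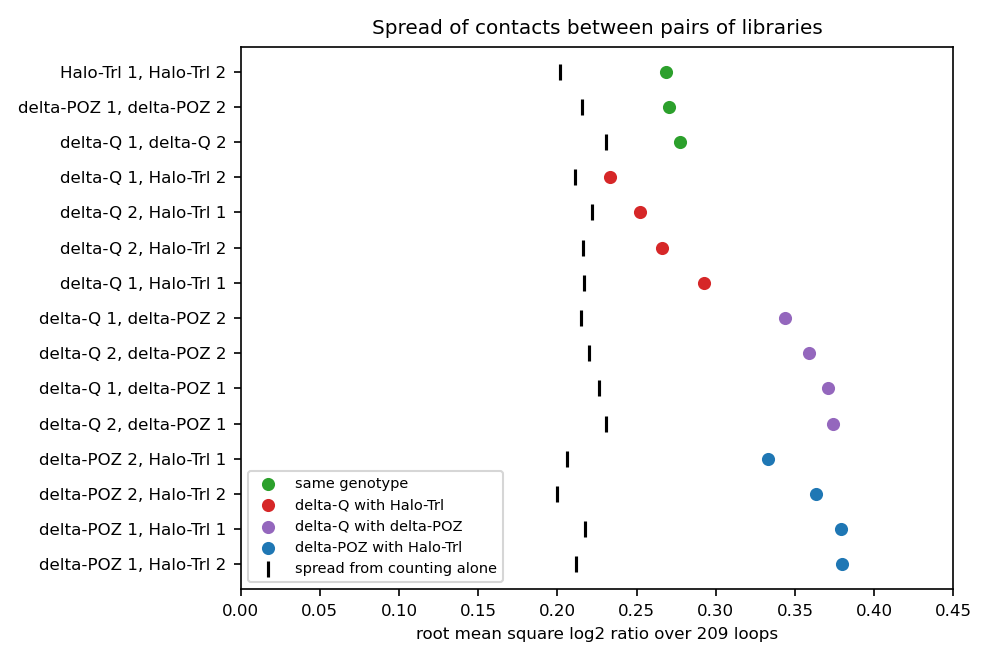
Root mean square log2 ratio over the whole loop list for each pair of wing disc libraries (dots, coloured by the genotypes paired) and the value counting error alone would give (black ticks). Pairs of delta-Q with Halo-Trl span 0.233 to 0.292, around the 3 replicate pairs at 0.268 to 0.278, and every pair with a delta-POZ library of another genotype lies at 0.333 or above.

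RNA of the genes named at the loops is a readout that the loop list did not use. Among all 10359 genes tested in wing discs of the same genotypes (30 discs and n = 3 libraries each), 68 were called between delta-Q and Halo-Trl (0.656%), 41 higher and 27 lower. Of the 164 anchor names, 159 matched 155 genes of the RNA table and 145 were tested. A single one was called (0.690%), tiptop (tio), a zinc finger gene paralogous to teashirt (tsh). It had 28.5, 30.5 and 31.2 CPM in delta-Q, 11.8, 13.5 and 13.0 in delta-POZ, and 83.7, 99.9 and 96.0 in Halo-Trl. All 3 delta-Q libraries were far below Halo-Trl and above delta-POZ. The log2 fold change was -1.63 (SE 0.11, edgeR adjusted p = 9.72e-05). The tio gene overlaps lncRNA:CR33987, and since the strand setting of the counting is not given, their reads cannot be told apart.

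The loop labelled tio, across 124.8 kb on 2L (21896901 to 21901900 and 22021701 to 22026700), did not share this fall. It had 166 and 180 normalised contacts in delta-Q, 126 and 134 in delta-POZ, and 129 and 168 in Halo-Trl. The log2 ratio of delta-Q to Halo-Trl was 0.22 (interval -0.12 to 0.56), whose lower bound is a loss of 7.94%. A second loop, labelled tsh and tio, across 190.4 kb, had a log2 ratio of 0.05 (-0.40 to 0.50) and overlapping libraries.

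At the other 144 anchor genes tested, an unadjusted p under 0.05 was met by 12 (8.33%), against 7.82% of all genes tested. The 95% interval lay within 2-fold for 121 of all 145 anchor genes (83.4%) and for 57.6% of all genes. Anchor genes and all genes were not matched for read level, on which interval width depends, so nothing is read from this difference. For chrb, whose loop is described above, RNA stood at 633, 845 and 878 CPM in delta-Q, 449, 388 and 354 in delta-POZ, and 854, 978 and 963 in Halo-Trl. Its log2 fold change in delta-Q was -0.25 (SE 0.15, edgeR adjusted p = 0.794). The salm gene had 150, 143 and 134 CPM in delta-Q, against 113, 122 and 120 in Halo-Trl, a log2 fold change of 0.27 (SE 0.09, adjusted p = 0.39). Its groups did not overlap, and it was not called. The vg gene had 284, 375 and 358 CPM in delta-Q, against 275, 360 and 301 in Halo-Trl (log2 0.12, adjusted p = 0.948). Ggamma30A was low in Halo-Trl, with 3.06, 2.68 and 3.63 CPM in delta-Q, against 0.134, 0.207 and 0.108 in Halo-Trl, and was not called (log2 4.35, SE 1.35, adjusted p = 0.327). Under DESeq2 it passed, as did CG12123 and Cht6, it also passed with delta-POZ left out of the fit, and Cht6 passed without delta-Q 3. Delta-POZ 2 had 19.9 CPM of Ggamma30A while the other delta-POZ libraries had 0.203 and 0.978, and this spread enters the shared fit. Whether this spread bears on the missed call was not tested. Delta-POZ 2 also stood out at some other anchor genes, such as pros (581 CPM, against 0.971 and 2.59) and Scr (52.8, against 0.898 and 1.69). In delta-Q 3 pros had 20.7 CPM, against 1.33 and 2.01 in the other delta-Q libraries. The marker lists used here hold no neural set, and the tissue content of these libraries was not tested. The Ggamma30A gene overlaps lncRNA:CR45262, Cht6 overlaps asRNA:CR45185 and CG12123 overlaps CG1440. As for tio, the reads of such overlapping genes cannot be told apart. The Ggamma30A loop, at 0.03 on the log2 scale, was among the most precisely bounded.

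Trl itself had 56.6, 60.3 and 64.0 CPM in delta-Q, against 51.3, 49.8 and 41.8 in Halo-Trl, a log2 fold change of 0.34 (SE 0.12, adjusted p = 0.447). The Trl gene overlaps CG42507 and Tsen34, whose reads cannot be told apart from its own without the strand setting. Counts over the whole gene do not check the loss of one domain, and no protein measurement was used here. A list of 19 further genes, of POZ factors, insulator proteins, chromatin remodellers and Polycomb group or related genes, had 0 calls, against 0.656% of all genes, a rate too low for a list of this size to show anything. Their log2 fold changes ran from -0.18 to 0.16, with a smallest edgeR adjusted p of 0.817. In these RNA libraries the summed fat body markers spanned 381 to 4466 CPM in delta-Q, against 8.0 to 2822 in Halo-Trl. Haemocyte markers summed to 1335 to 2216 in delta-Q, against 1220 to 1438 in Halo-Trl. Muscle markers summed to 200 to 232 in delta-Q, against 189 to 214 in Halo-Trl, and tracheal markers to 68 to 75 in delta-Q, against 65 to 74 in Halo-Trl. Their part in the RNA results was not tested.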

How the data were processed

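The authors deposited unnormalised counts: contacts in each loop for 6 libraries, and reads in each gene for 9 RNA libraries. The submitters' processing notes name BWA, bedtools and DESeq2 for contacts and featureCounts and DESeq2 for RNA, without versions. The wt columns were read as Halo-Trl, since each other genotype has columns bearing its name. The members, classes, roles and lists were chosen with earlier results of these data known.

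Tests used edgeR 4.0.16 under R 4.3.3 (TMM, quasi-likelihood F test, genotype as the only term, all libraries of an assay in 1 fit, at least 10 contacts summed per loop, filterByExpr for RNA, Benjamini-Hochberg adjustment). The 95% interval is the log2 ratio ± the t quantile times SE, with SE the size of the ratio divided by the square root of F. Its 627 degrees of freedom reflect 1 spread for all loops (biological coefficient of variation 8.32%). Class sums used the loop fit's effective library sizes. RNA libraries held 57673928 to 85575887 reads. Loops were named by lowest p, largest change, delta-POZ calls, contact number, interval width and paralog families, and others after their values were seen. Scripts were tested on simulated data. The authors' own delta-Q comparison gives log2 fold changes, standard errors, a mean and a statistic (scores), and p-values, per the file headers. In the authors' deposited table no adjusted p-value was under 0.05 (lowest 0.998), and its log2 fold changes differed from those here by at most 0.016. CUT&Tag data were not analysed here.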

Additional observations from a re-analysis of the deposited data

How the results depend on the processing

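No loop was called between delta-Q and Halo-Trl under any of 13 alternatives, with 0.0718 the smallest adjusted p (upper-quartile normalization). Intervals within 2-fold numbered 194 to 207. Those within 1.5-fold numbered 79 with DESeq2 and 76 to 99 when 1 replicate was left out, against 166 as reported; the fits without a replicate rest on fewer samples, and the cause under DESeq2 was not tested. Unadjusted p under 0.05 was met by 4 loops as reported, by 12 under upper-quartile normalization, 1 under DESeq2, 7 with 4 libraries only, 2 with the replicate block and 3 to 8 without 1 replicate. Pairing the Halo-Trl numbers crosswise, an alternative added after seeing the data, gave 0 calls, 8 such loops and 170 bounded within 1.5-fold. By distance quartile the lowest class ratio was 0.021 (quartile of 30.8 to 57.6 kb) in place of -0.08. The 16 longest loops are then merged with others in the quartile of 57.6 to 286.8 kb, whose ratio was 0.031. Of 559 values of named loops under the alternatives 25 moved by more than the replicate spread, as did 47 of 189 class values. Anchor genes called by RNA numbered 4 under DESeq2, 2 with 6 libraries only and 1 to 2 when a replicate was left out. Of these tio was called in all 11 alternatives (adjusted p 4.46e-37 to 0.0017). With 2 libraries per genotype the median interval half-width was 1.30-fold, before any adjustment over loops. The largest estimated difference (log2 -0.72) was itself not called, with an edgeR adjusted p of 0.369. Differences at single loops, also some above 1.30-fold, are therefore not detectable at this depth.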
